A study of Saccharomyces cerevisiae with 6 samples.

Results

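The proteasome is the protease complex that degrades ubiquitin-tagged proteins in the cytosol and nucleus. Its barrel-shaped core particle is built from alpha rings, which gate entry, and beta rings, which hold the cutting sites. A regulatory particle caps the barrel. The base of this cap carries a ring of ATPases that unfold substrates, and its lid carries the enzyme that removes ubiquitin. In budding yeast the subunit genes share an activator, Rpn4, a short-lived transcription factor that the proteasome itself degrades. Rpn4 binds an upstream element named PACE (proteasome-associated control element).

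The 33 genes described here are 32 proteasome subunit genes and RPN4, named from the known complex. The list was chosen with earlier results of these data known, so no test of the set as a whole was run. They comprise 14 core genes (7 of the alpha ring and 7 of the beta ring), 10 base genes, 8 lid genes and the regulator. All 33 were found among the 6032 listed genes, and all 33 passed the filter on low counts that left 2909 genes for testing.

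Transcripts were measured by RNA-seq in Saccharomyces cerevisiae strains with wild-type ASK10 (WT), with ASK10 deleted (deletion), or with the ASK10 M475R substitution (M475R). The ASK10 product controls opening of Fps1, the glycerol channel of the plasma membrane. All cultures were in complete synthetic medium without uracil, and glucose was at 20 g/l. The labels do not say how the alleles were introduced, whether a strain was 1 clone, or whether replicates were separate cultures. Both replicates of WT and of M475R were used, with replicate 2 of the deletion, whose replicate 1 was not analysed here.

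Total expected counts were 102612 and 51576 in the WT libraries, 117680 in the deletion library, and 4155203 and 71228 in M475R replicates 1 and 2. The 2 WT libraries did not differ beyond sampling noise (chi-square per degree of freedom 1.005 over 2001 genes, p = 0.436), nor did the 2 M475R libraries (1.025 over 2876 genes, p = 0.168). Each pair therefore counts as 1 sample of its strain, although the fit kept the libraries separate. The p-values reflect counting error almost alone, since the fitted spread between libraries, which may be technical, was small (coefficient of variation 3.18%). They compare these libraries, not strains. ASK10 itself was read 5 and 7 times in WT, 0 times in the deletion and 567 and 4 times in M475R. Subunit genes had 12 to 63 counts in WT replicate 1, 8 to 35 in WT replicate 2, 7 to 75 in the deletion, 547 to 3113 in M475R replicate 1 and 13 to 61 in M475R replicate 2. Levels of a gene in single libraries are given in CPM, its count relative to the TMM-scaled library size. A single count was worth 10.8 and 21.3 CPM in the WT libraries, 9.51 in the deletion, and 0.261 and 15.1 in the M475R libraries.

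The upstream element is what most of these genes share in sequence. In the S288C reference genome (R64), the PACE motif GGTGGCAAA was searched on both strands in the 300 bases before each start codon. It occurred before 27 of 32 subunit genes (84.4%), against 73 of 6007 genes in all (1.22%), these 27 among them. The element is known from proteasome genes, so its frequency before them is background and not a result of these data. By module it stood before 6 of 7 alpha ring, 6 of 7 beta ring, 8 of 10 base and 7 of 8 lid genes. The motif's last base lay 76 to 175 bases before the start codon (median 112), on the strand of the gene in 19 cases and on the opposite strand in 8. The 6 genes with no match in this window were PRE5, PUP1, RPN10, RPN13, RPN8 and RPN4. These sites are matches in the reference, not measured binding sites, and the build used for the counts may differ from R64.

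Sites are given 5′ to 3′ along the gene for the genes that passed a test in some comparison and held the motif, and for PRE1 and RPN9, which had the highest and the lowest subunit level per length in the deepest library. Capitals mark the motif or its reverse complement.
SCL1 (chrVII:475335-475367, minus strand): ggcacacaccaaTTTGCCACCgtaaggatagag
PUP2 (chrVII:999224-999256, minus strand): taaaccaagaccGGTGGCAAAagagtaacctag
RPT6 (chrVII:411350-411382, minus strand): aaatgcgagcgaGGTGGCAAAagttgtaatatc
RPN3 (chrV:196841-196873, plus strand): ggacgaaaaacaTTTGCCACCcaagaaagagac
PRE3 (chrX:435033-435065, plus strand): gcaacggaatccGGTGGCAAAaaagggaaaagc
PRE1 (chrV:177681-177713, plus strand): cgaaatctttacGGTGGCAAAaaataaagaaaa
RPN9 (chrIV:1322084-1322116, plus strand): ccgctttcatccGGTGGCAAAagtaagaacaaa

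**Figure D1:**
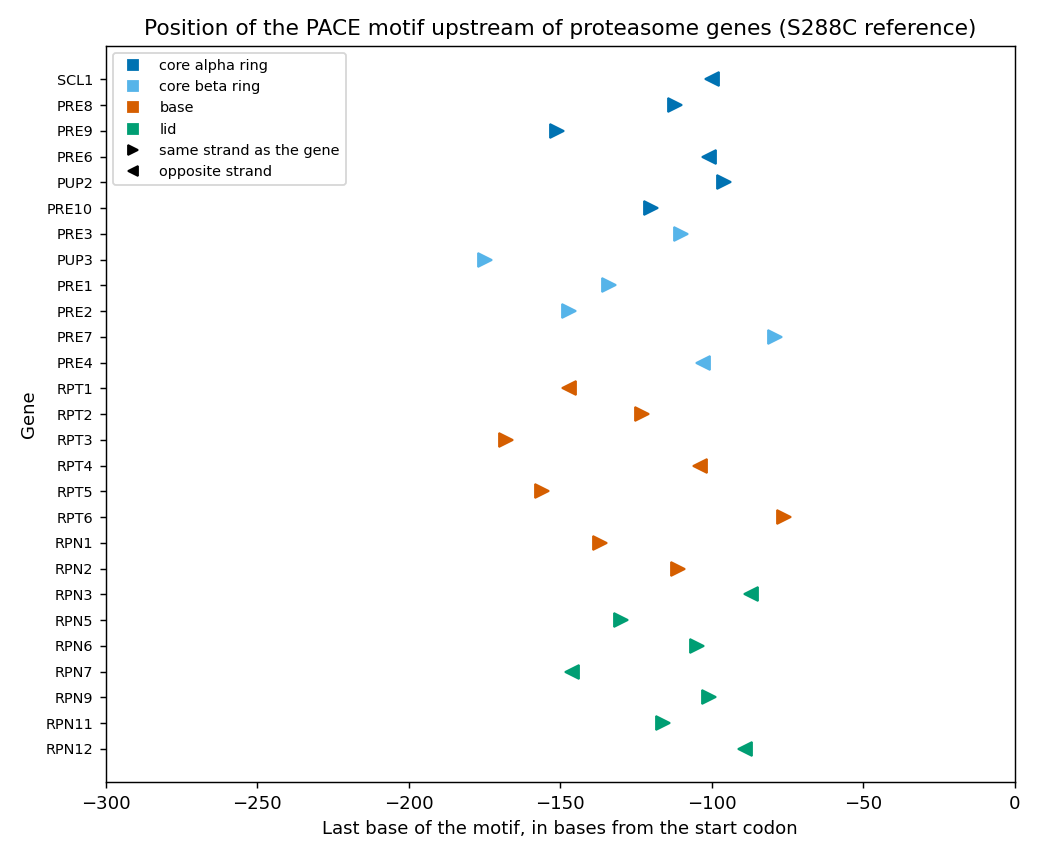
Position of the PACE motif upstream of 27 proteasome genes in the S288C reference. The horizontal axis is the distance in bases from the motif's last base to the start codon, each row is a gene, colour gives the module, and the triangle points right where the motif lies on the gene's own strand. All sites fall between 175 and 76 bases before the start codon.

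Levels of different genes were compared in the authors' FPKM, which is per length. Core genes stood highest. In M475R replicate 1, the library with the most counts, the median FPKM was 437 for the core, 351 for the base and 318 for the lid, against 53 over all 6032 genes. The core median was also the highest of the 3 in WT replicate 1 (310, with 264 for the base and 255 for the lid), WT replicate 2 (360, 283 and 243), the deletion (369, 264 and 272) and M475R replicate 2 (417, 328 and 369). The order of base and lid differed between libraries.

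Within M475R replicate 1, subunit levels spanned 2.81-fold. PRE1, a beta ring subunit, was highest at 599 FPKM, followed by the alpha ring subunits SCL1 (561) and PUP2 (552). The lowest were RPN1 (253), the large base subunit on which ubiquitin receptors dock, and the lid scaffold subunits RPN7 (225) and RPN9 (213). All 32 subunit genes lay above 85.2% or more of the listed genes. RPN4, at 92 FPKM, lay above 68.3% of them, and the subunit median was 4.2 times its level. The coefficient of variation across the 32 subunits was 25.2% in this library and 26.4% to 35.2% in the other libraries, in which each gene had fewer counts.

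The authors' FPKM runs higher than counts per kilobase of coding length, by more in short genes (RPN13 315 against 279, RPN1 253 against 250), and core genes are short. Computed from the counts per kilobase instead, a choice made after seeing the data, the medians in M475R replicate 1 were 401 for the core, 337 for the base and 301 for the lid. The core median remained the highest of the 3 in each of the 5 libraries.

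**Figure D2:**
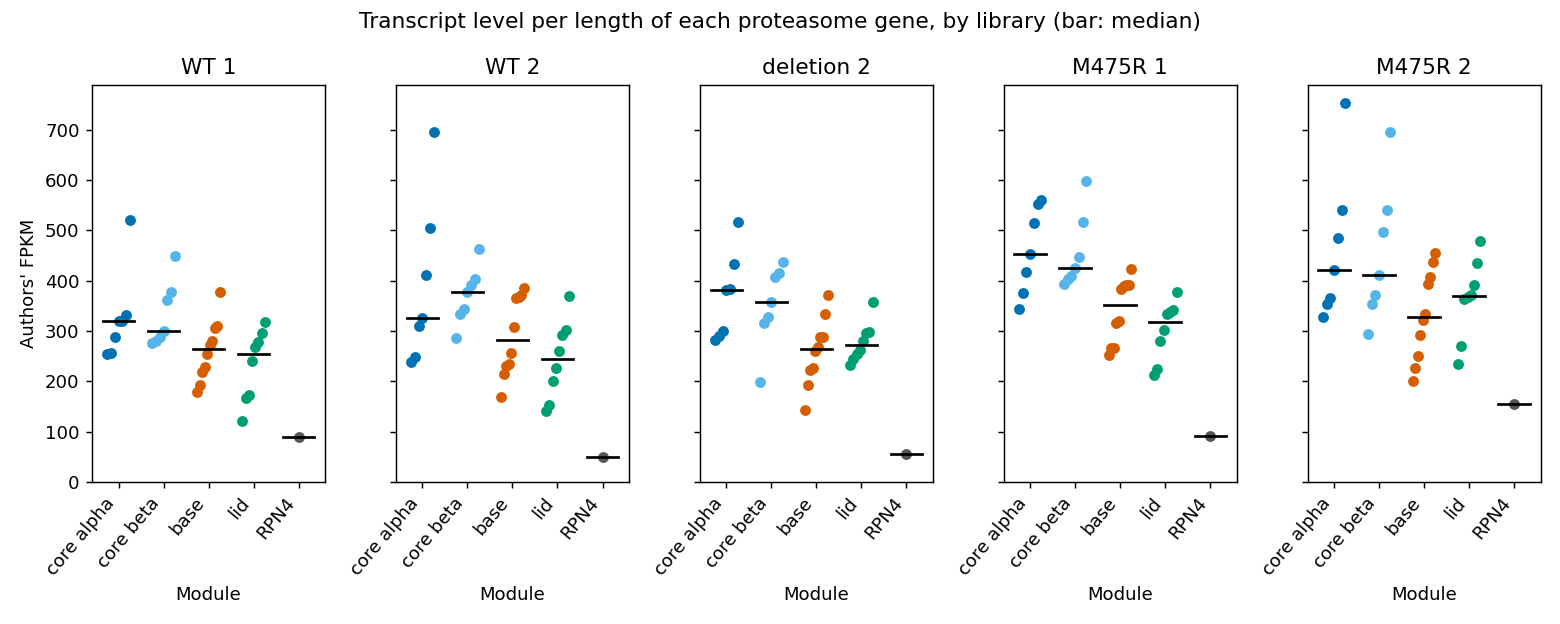
Authors' FPKM of each proteasome gene in the 5 libraries, by module. Points are genes, sorted within a module, and bars are medians. In M475R 1 the medians of the core, base and lid were 437 (both rings), 351 and 318, and RPN4 lies below the subunits in each panel.

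M475R was compared with WT to ask how the substitution alters expression. Proteasome genes of the core, base and lid stood a little higher in M475R. Of 33 genes, 31 had a log2 fold change above 0 and 5 passed the test upwards (edgeR's quasi-likelihood test, Benjamini-Hochberg adjusted p under 0.05 over all genes tested), where 8.46% of all tested genes were called higher. None passed downwards, where 10.1% of all tested genes did, nor at an unadjusted p under 0.05, and DESeq2 called 0 in either direction, with 2 genes at an unadjusted p under 0.05. The median log2 fold change was 0.36, beside 0.01 over all genes and 50.8% of all genes above 0.

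Both M475R libraries lay above both WT libraries in 21 of the 33 genes, where this held for 28% of all tested genes. Both lay below WT in 1 (26.1% of all tested genes), RPN9.

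The 32 subunit genes together took 0.879% of all counts in WT replicate 1 (exact binomial 95% interval 0.823 to 0.938) and 0.979% in WT replicate 2 (0.896 to 1.07). They took 0.969% in the deletion (0.914 to 1.03), and 1.18% (1.17 to 1.19) and 1.22% (1.14 to 1.31) in M475R replicates 1 and 2. Both M475R libraries were thus above the WT and deletion libraries. After TMM scaling, the summed counts were 1.27 times WT (exact 95% interval 1.21 to 1.34), and 1.3 times WT from M475R replicate 2 alone (1.2 to 1.42). Sums by single libraries were added after seeing the data. Set against single WT libraries, the ratio was 1.32 for replicate 1 (1.24 to 1.41) and 1.19 for replicate 2 (1.09 to 1.31). All intervals here cover only the error of counting, and PCR copies of a molecule are not independent counts.

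By module, the ratio of M475R to WT was 1.3 for the core (1.19 to 1.43), 1.25 for the base (1.15 to 1.37) and 1.26 for the lid (1.13 to 1.41). The alpha and beta rings each stood at 1.3. Differences between modules were not tested. The lid reached 1.51 (1.27 to 1.8) when only M475R replicate 2 was taken, with 0.33% of counts in that library and 0.271% in M475R replicate 1. The median log2 fold changes of core, base and lid were 0.40, 0.35 and 0.32. They were 0.31, 0.14 and 0.48 without WT replicate 1, and 0.38, 0.27 and 0.64 without M475R replicate 1.

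**Figure D3:**
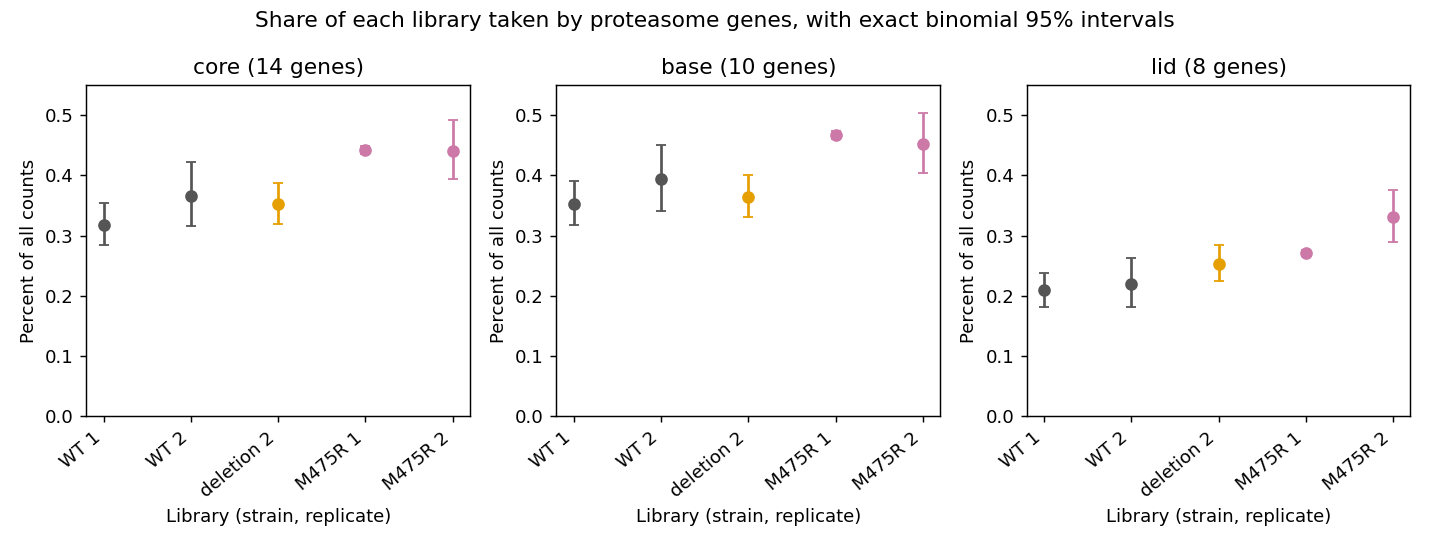
Percent of all counts taken by core, base and lid genes in each library, with exact binomial 95% intervals. The summed share of the 3 modules lay between 0.879% and 0.979% in the WT and deletion libraries and at 1.18% and 1.22% in M475R.

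Among alpha ring genes, SCL1 and PUP2 rose in M475R relative to WT. SCL1 stood at 258 and 319 CPM in the WT libraries, 409 in the deletion, and 431 and 572 in M475R. Both M475R libraries lay above both WT libraries, with the deletion between them. The ratio to WT was 1.55 (1.13 to 2.19), or 0.64 ± 0.22 SE on the log2 scale, with an adjusted p of 0.026. PUP2 stood at 258 and 191 CPM in WT, 314 in the deletion, and 439 and 331 in M475R, again with no overlap of M475R and WT. Its ratio was 1.85 (1.31 to 2.7), or 0.89 ± 0.24 SE on the log2 scale, with an adjusted p of 0.00175. The other alpha ring genes did not pass, with ratios from 1.09 (PRE5) to 1.4 (PRE8). PRE9, which encodes the one alpha subunit that yeast can live without, differed most between WT libraries, at 205 and 553 CPM, beside 357 and 376 in M475R.

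No beta ring gene passed in this comparison. Ratios of M475R to WT ran from 1.13 for PRE3 to 1.42 for PUP3 (0.97 to 2.16). The genes of the catalytic subunits gave 1.13 (PRE3, caspase-like), 1.35 (PUP1, trypsin-like) and 1.24 (PRE2, chymotrypsin-like). All 7 ratios lay above 1, and 1 beta ring gene, PRE4 at 1.39 (0.987 to 2.03), had an unadjusted p under 0.05.

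In the base, RPT6, an ATPase subunit gene, was higher in M475R than in WT. It stood at 248 and 468 CPM in WT, 438 in the deletion, and 487 and 512 in M475R. The 2nd WT library lay close below M475R replicate 1, so that the difference came mainly from WT replicate 1. The ratio was 1.52 (1.13 to 2.09), or 0.60 ± 0.21 SE on the log2 scale, with an adjusted p of 0.0278, and the log2 value was 0.08 without WT replicate 1. The other ATPase genes did not pass, with ratios from 1.08 (RPT5) to 1.34 (RPT1, 1.05 to 1.74, adjusted p = 0.103). RPN1 gave 1.28 (1.03 to 1.6, adjusted p = 0.119) and RPN2, the other large scaffold of the base, 1.21. The ubiquitin receptor genes RPN10 and RPN13 gave 1.32 (0.94 to 1.92) and 0.959 (0.621 to 1.56).

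In the lid, RPN3 and RPN8 were higher in M475R than in WT. RPN3, a scaffold subunit gene, stood at 280 and 255 CPM in WT, 419 in the deletion, and 462 and 602 in M475R. Its M475R and WT libraries did not overlap, and the ratio was 1.71 (1.24 to 2.42), or 0.78 ± 0.22 SE on the log2 scale, with an adjusted p of 0.0042. RPN8, whose product pairs with the deubiquitinase Rpn11, stood at 129 and 276 CPM in WT, 323 in the deletion, and 351 and 452 in M475R. It had the largest ratio to WT of the 32 subunit genes, 1.97 (1.33 to 3.06), or 0.98 ± 0.26 SE on the log2 scale, with an adjusted p of 0.00197. The log2 value was 0.37 without WT replicate 1. RPN8 had no PACE match in its upstream window.

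RPN9, another lid scaffold gene, lay on the other side. It stood at 301 and 361 CPM in WT, 295 in the deletion, and 262 and 286 in M475R, so that both M475R libraries were below both WT libraries. The ratio was 0.817 (0.606 to 1.13, adjusted p = 0.438) and did not pass. RPN11, the deubiquitinase gene itself, gave 1.22 (0.86 to 1.77), and RPN5, RPN6, RPN7 and RPN12 gave 1.11 to 1.38.

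None of the 5 genes was called without WT replicate 1, which leaves fewer counts. The log2 fold change was then smaller for SCL1 (0.46, adjusted p = 0.578), RPT6 (0.08, adjusted p = 0.925) and RPN8 (0.37, adjusted p = 0.685). It was larger for PUP2 (1.21, adjusted p = 0.0504) and RPN3 (0.88, adjusted p = 0.165), and RPN8 was no longer the highest subunit gene. The 1 gene then called was RPT2, an ATPase subunit gene (log2 fold change 1.23, adjusted p = 0.0236). Without M475R replicate 1, PUP2 (log2 fold change 0.53, adjusted p = 0.51) and RPT6 (0.71, adjusted p = 0.207) lost their calls and 3 genes were called. The median log2 fold change of the 33 genes was 0.26 without WT replicate 1 and 0.48 without M475R replicate 1.

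Ratios of single subunit genes ran from 0.817 to 1.97, and differences among them were not tested. The 95% intervals of 29 of 32 subunit genes held the summed ratio of 1.27. The exceptions were PUP2 and RPN8 above it and RPN9 below it. Subunit genes with a PACE match had a median log2 fold change of 0.36 (27 genes, 4 called higher), and those without had 0.40 (5 genes, 1 called higher).

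**Figure D4:**
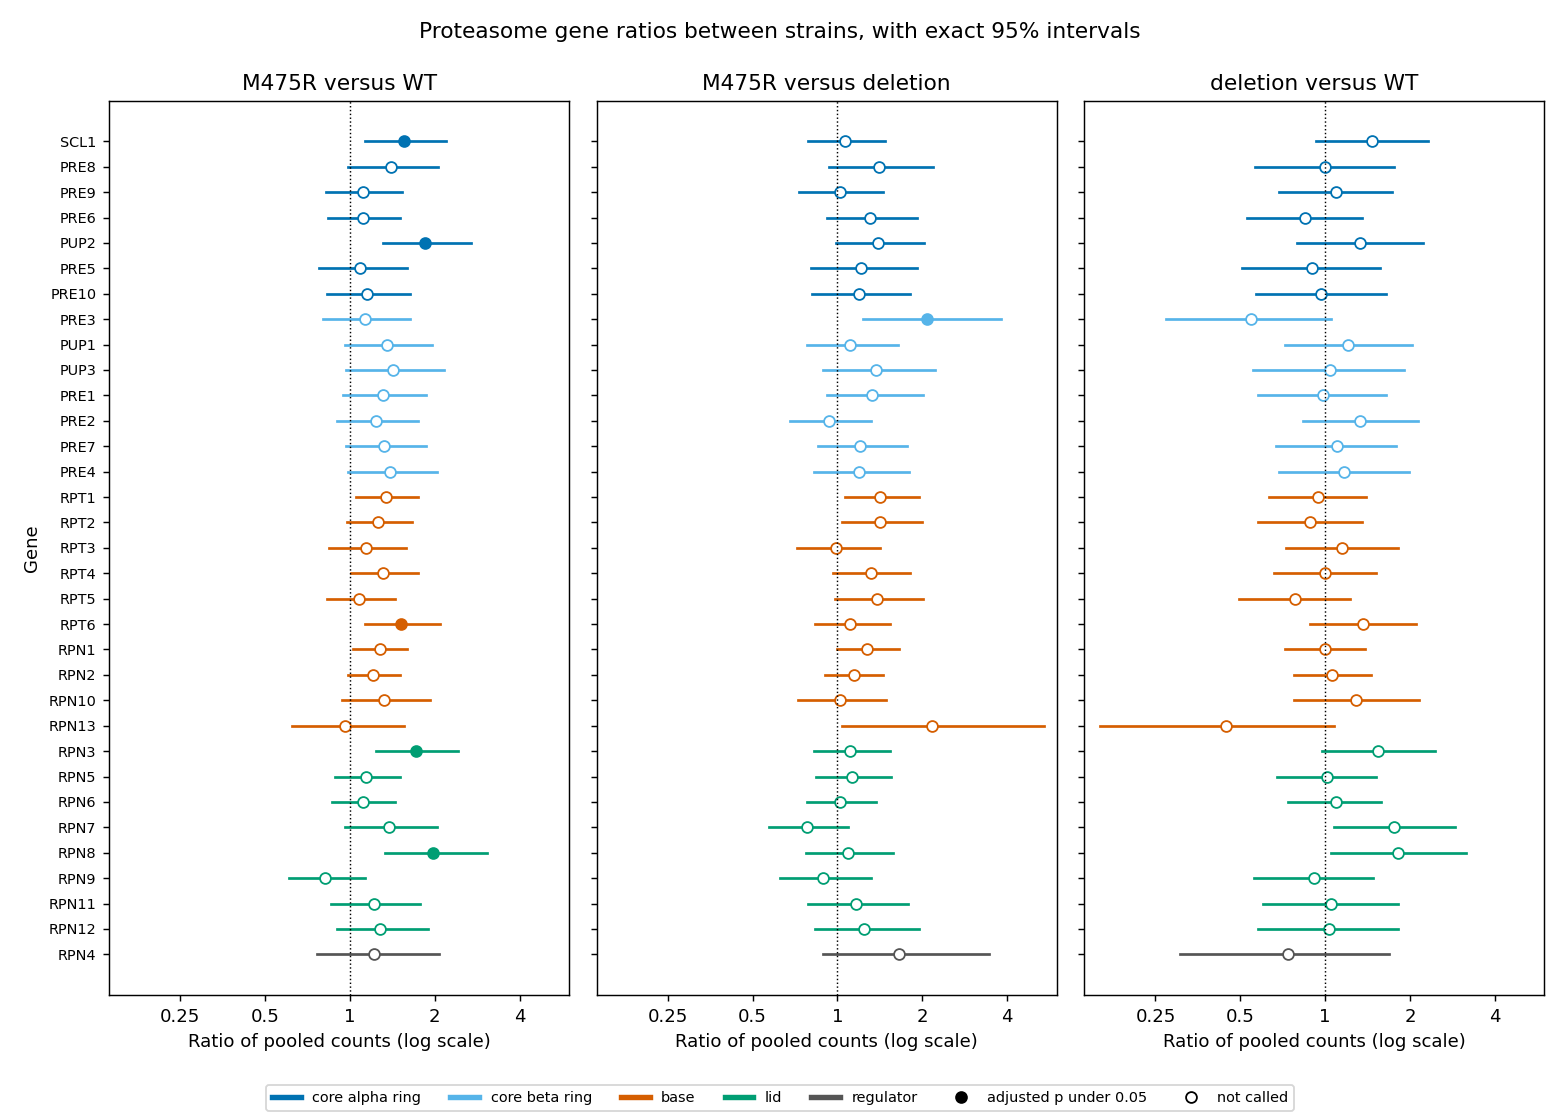
Ratio of pooled, TMM-scaled counts for each of the 33 genes in the 3 comparisons, on a log axis with exact 95% intervals. Filled points have an adjusted p under 0.05, and colour gives the module. In M475R versus WT, 31 of 33 points lie to the right of 1, and 5 are filled.

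M475R was next compared with the deletion, to set the substitution beside absence of ASK10. Core and base genes again stood slightly higher in M475R, while for the summed lid the interval of the ratio held 1. Of the 33 genes, 29 had a log2 fold change above 0 and 1, PRE3, was called higher, where 4.09% of all tested genes were called higher. None were called lower (6.19% of all tested genes, and 10.3% were called in either direction), and no gene with a log2 fold change below 0 had an unadjusted p under 0.05. DESeq2 called 0 in either direction. The median log2 fold change was 0.25, beside 0.01 over all genes. The 5 genes called higher against WT were not called here. Their ratios to the deletion were 1.06 for SCL1, 1.39 for PUP2, 1.11 for RPT6, 1.11 for RPN3 and 1.09 for RPN8. Both M475R libraries lay above the deletion library in 26 genes and below it in 4, where each held for 38.8% of all tested genes.

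PRE3, the gene of the caspase-like subunit, stood at 133 CPM in the deletion, 276 and 226 in M475R, and 237 and 255 in WT. The deletion library was the lowest of the 5. Relative to the deletion, M475R stood at 2.07-fold (1.23 to 3.79), a log2 difference of 1.05 ± 0.34 (SE) with an adjusted p of 0.0268. Without M475R replicate 1 the log2 fold change was 0.80 (adjusted p = 0.53). RPN13 was also lowest in the deletion, at 66.6 CPM (7 counts) in the deletion, 143 and 196 in M475R, and 140 and 170 in WT, and did not pass (ratio 2.16, 1.04 to 5.4, adjusted p = 0.13).

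Summed over the module, M475R stood at 1.22 times the deletion in the core (1.1 to 1.35), 1.24 times in the base (1.13 to 1.37) and 1.04 times in the lid (0.928 to 1.17). From M475R replicate 2 alone the lid ratio was 1.25 (1.05 to 1.49). RPN7 was the lowest, at 0.781 (0.572 to 1.09), and together with PRE3 it was 1 of the 2 subunit genes whose interval did not hold the summed ratio of 1.18.

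The deletion was compared with WT to ask what loss of ASK10 does. No proteasome gene was called by edgeR's quasi-likelihood test, where 0.481% of all tested genes were called higher, 0.206% lower and 0.688% in either direction, and DESeq2 also called 0. At an unadjusted p under 0.05 edgeR had 4 genes. RPN7 (ratio 1.76, 1.08 to 2.9) and RPN8 (1.81, 1.05 to 3.17) were above WT, and PRE3 (0.548, 0.272 to 1.05) and RPN13 (0.444, 0.159 to 1.08) below it. DESeq2 had 0 at that level. The median log2 fold change of the 33 genes was 0.05, with 20 above 0 and 13 below. The deletion library lay above both WT libraries in 13 genes (34.1% of all tested genes) and below both in 6 (30.5%).

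In the deletion, RPN7 reached 390 CPM, above WT (237 and 191) and above M475R (304 and 361). The summed lid stood at 1.21 times WT (1.03 to 1.42), while the core (1.07, 0.938 to 1.22) and the base (1.01, 0.887 to 1.15) had intervals that held 1. Against WT replicate 2 alone, the interval of the lid also held 1 (1.18, 0.948 to 1.48). The 1 deletion library has no replicate here, and the M475R and deletion comparisons with WT share the same WT libraries. A difference shared by both comparisons cannot be told apart from a WT sample that was itself low or high.

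**Figure D5:**
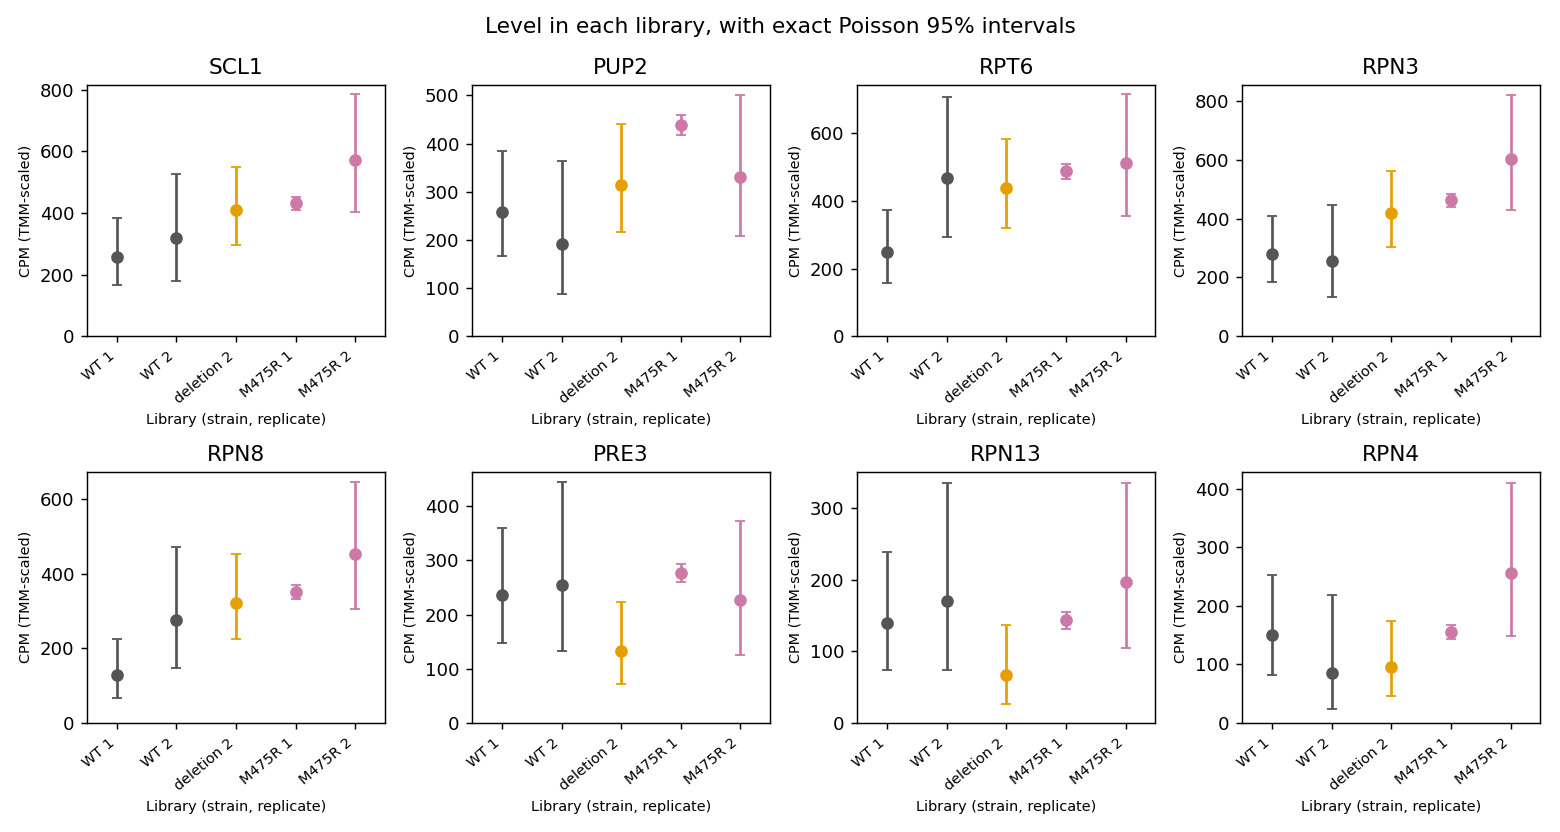
Level of 8 genes in each library, in CPM after TMM scaling with exact Poisson 95% intervals. SCL1, PUP2, RPT6, RPN3 and RPN8 are the genes called higher in M475R than in WT, and PRE3 is the gene called higher in M475R than in the deletion, where it stood at 133 CPM. RPN13 and RPN4 were not called in any comparison.

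RPN4, the shared activator gene, was not called in any comparison. It stood at 151 and 85 CPM in WT (14 and 4 counts), 95.1 in the deletion (10 counts), and 155 and 256 in M475R (593 and 17 counts). M475R replicate 1 and WT replicate 1 were close, and the lower values came from libraries with 10 or fewer counts. The ratio of M475R to WT was 1.22 (0.764 to 2.07, adjusted p = 0.636), that to the deletion 1.65 (0.889 to 3.45, adjusted p = 0.341), and that of the deletion to WT 0.74 (0.305 to 1.69). At this depth a change of RPN4 as large as that of the summed subunits was not detectable.

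RPN4 is itself transcribed under control of the drug-response factors Pdr1 and Pdr3, the oxidative stress factor Yap1 and the heat shock factor Hsf1. Of these 4 genes, 3 were called higher in M475R than in WT, where 8.46% of all tested genes were. The ratio was 2.94 for PDR1 (1.54 to 6.45, adjusted p = 0.00117), 3.51 for PDR3 (1.7 to 8.77, on 7 WT counts, adjusted p = 0.000469) and 1.66 for YAP1 (1.11 to 2.6, adjusted p = 0.0427). HSF1 gave 1.16 (0.748 to 1.92, adjusted p = 0.707). Without WT replicate 1, none of the 3 kept its call, and the log2 fold changes were 1.17 for PDR1 (adjusted p = 0.341), 0.48 for PDR3 (0.734) and 0.44 for YAP1 (0.67), beside 1.55, 1.81 and 0.73 with all libraries. PDR3 reached 4.01 without WT replicate 2, so that its value turned on which WT library was used. Without M475R replicate 1 the calls were lost too, with log2 fold changes of 1.62 for PDR1 (adjusted p = 0.181) and 2.01 for PDR3 (0.197), no smaller than with it, and 0.44 for YAP1 (0.666). YAP1 missed the threshold under 8 of 11 alternatives, also without WT replicate 2 (log2 fold change 0.91). In edgeR it missed with DESeq2's scaling (adjusted p = 0.0555), no filter on low counts (0.103) and the replicate number as a block (0.113). DESeq2 did not call it either (0.564). At a biological CV fixed at 20%, PDR1 (0.0898), PDR3 (0.0527) and YAP1 (0.577) were not called. Against the deletion, which shares the M475R libraries, PDR3 was called higher at 4.62 (1.8 to 17, on 4 deletion counts, adjusted p = 0.00112, and 0.215 without M475R replicate 1, at a log2 fold change of 2.46) and PDR1 was not, at 2.21 (1.16 to 4.85, adjusted p = 0.0585).

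Of 8 genes activated by Pdr1 and Pdr3, 6 passed the filter on low counts, which could admit a gene through its M475R libraries. In M475R versus WT 5 were called higher and 0 lower, beside 8.46% and 10.1% of all tested genes. Outside M475R, PDR15 had 2 to 7 counts and YOR1 5 to 9. The drug pump genes PDR5 (ratio 15, 11.2 to 20.8), PDR15 (7.81), SNQ2 (2.93) and YOR1 (2.29) were among those called higher, as was the lipid transfer gene PDR16 (1.76). The other tested gene had a log2 fold change of -0.06 and was not called. PDR5 and PDR15 kept their calls without any 1 library. SNQ2 lost its call without M475R replicate 1 (log2 fold change 0.97, adjusted p = 0.201). YOR1 (0.78, adjusted p = 0.579) and PDR16 (0.75, adjusted p = 0.324) lost theirs without WT replicate 1. Against the deletion 3 of the 6 (PDR5, PDR15 and SNQ2) were called higher and 0 lower, beside 4.09% and 6.19% of all tested genes. The gene at -0.06 versus WT had a log2 fold change of -0.58 there, with an unadjusted p under 0.05 by edgeR. In deletion versus WT none of the 6 was called by edgeR, beside 0.688% of all tested genes, or had an unadjusted p under 0.05. The ratios were 1.05 for PDR5 and 1.16 for PDR15.

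In the reference, the 600 bases before RPN4 held no match to TCCGCGGA, a Pdr1 and Pdr3 element present before 0.749% of all genes. An Hsf1 element (GAA, TTC and GAA in this order with 2 free bases between neighbours), searched on both strands and present before 1.7% of all genes, occurred 336 and 9 bases before the RPN4 start codon. None of the 32 subunit genes held either motif in 600 bases. Only these exact patterns were searched, so variant forms of either element would have been missed.

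Genes that feed or assemble the proteasome were followed by fixed lists. Of 13 genes for assembly and associated factors, 6 were tested and 1 was called higher in M475R than in WT, beside 8.46% of all tested genes. This was ECM29, whose product tethers core and regulatory particles (2.13, 1.32 to 3.67, adjusted p = 0.00397). DESeq2 (adjusted p = 0.215) and edgeR at a biological CV fixed at 20% (0.225) did not call ECM29. Its log2 fold change of 1.09 was 0.45 without WT replicate 1 (adjusted p = 0.678) and 1.26 without M475R replicate 1 (adjusted p = 0.0916). The tested members had a median log2 fold change of 0.45 (0.01 over all tested genes), but the filter could admit a gene through the strain in which it was high. UMP1, the core assembly chaperone gene, gave a log2 fold change of 0.14 (adjusted p = 0.845).

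Of 31 genes of ubiquitin conjugation and delivery, 22 were tested, 5 were called higher in M475R than in WT and 0 lower, beside 8.46% and 10.1% of all tested genes. Their median log2 fold change was 0.34 (0.01 over all tested genes), and the filter could act on this list as on the last. Called higher were UBA1, the ubiquitin-activating enzyme gene (ratio 1.66, 1.32 to 2.11), and the ligase genes RSP5 (1.87) and UFD4 (1.85). The others were the segregase gene CDC48 (1.37, 1.16 to 1.63), and DSK2, a shuttle factor that carries ubiquitinated proteins to the proteasome (1.96). At a biological CV fixed at 20% none of the 5 was called (UBA1 adjusted p = 0.181). DESeq2 called UBA1 (adjusted p = 0.0487) but not RSP5 (0.115), CDC48 (0.382) or DSK2 (0.119), and gave no adjusted p for UFD4. In edgeR, UFD4 also missed the threshold with no filter on low counts (0.0929) and with the replicate number as a block (0.104). UBA1 kept its call without any 1 library. The other 4 lost theirs without WT replicate 1. The log2 fold change was then smaller for DSK2 (0.33, from 0.97, adjusted p = 0.679) and CDC48 (0.27, from 0.43, adjusted p = 0.552). It was close to the reported value for RSP5 (0.88, from 0.91, adjusted p = 0.232) and larger for UFD4 (1.33, from 0.89, adjusted p = 0.23). CDC48 (0.33, adjusted p = 0.453) and UFD4 (0.81, adjusted p = 0.45) also lost theirs without M475R replicate 1, and UFD4 without WT replicate 2 (0.71, adjusted p = 0.254).

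Neither list had a member called in M475R versus deletion or in deletion versus WT. Of all tested genes, 10.3% and 0.688% were called in either direction in these comparisons. The medians were 0.35 and 0.22 for the assembly and ubiquitin lists in the first of these, and 0.20 and 0.28 in the second. Over all tested genes the medians were 0.012 and -0.002. DSK2 stood at 161 and 361 CPM in WT, 457 in the deletion, and 448 and 512 in M475R. The deletion library thus also lay above WT (ratio 2, 1.25 to 3.23, edgeR adjusted p = 0.196). It was above both WT libraries too for ECM29 (1.72), UFD4 (1.91), RSP5 (1.51), UBA1 (1.22) and CDC48 (1.2). This held for 34.1% of all tested genes, and the 95% intervals of these ratios held 1. M475R stood at 1.24, 0.967, 1.23, 1.35 and 1.14 times the deletion for these genes, in the same order, and at 0.983 for DSK2. Here too a WT sample that was itself low cannot be told apart.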

How the data were processed

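RNA-seq tables of 5 libraries were used. Per the submitters' processing notes, the tools were BWA and Bowtie. Genome build, annotation and counter: not given in the sources used here. The identifiers end in the strain name CEN.PK113-7D. The authors' 7 full pairwise tables hold, per the file headers, an expression value per library, used as an expected count, and an FPKM, which the authors set to 0.001 at 0. Tables leave out genes at 0 in both libraries, so 436 unlisted values were taken as 0. A further 20 columns of per-sample values in the filtered lists were not used. Symbols came from R64 by locus tag (5515 of 6032 identifiers matched), and promoter windows from the R64 genome and annotation.

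Expected counts, rounded (0 values of the 33 genes were not whole), were tested in R 4.3.3 with TMM scaling, filterByExpr and the quasi-likelihood functions of edgeR 4.0.16, in 1 fit of all libraries with strain as the only factor. Genes with a Benjamini-Hochberg adjusted p under 0.05 were called. The common dispersion was 0.00101 (biological CV 3.18%), with 2 residual degrees of freedom and infinite prior degrees of freedom, so that p-values and standard errors (SE) reflect counting error almost alone. Replicates that did not differ beyond sampling noise stayed separate libraries in this fit, and the deletion, with 1 library, borrows its spread from them. Ratios divide the counts summed over a strain's libraries by their summed TMM-scaled sizes, with exact conditional binomial 95% intervals from SciPy 1.17.1, and M475R ratios largely reflect replicate 1. DESeq2 1.42.0 was an alternative. Scripts were tested on simulated data. All 33 genes were named whatever their values, the genes of other lists where called, and PDR1, PDR3, YAP1, HSF1 and ASK10 in any case, except where shown for contrast (UMP1). Genes and lists were chosen with earlier results of these data known.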

Additional observations from a re-analysis of the deposited data

How the results depend on the processing

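Under every alternative tried, the median log2 fold change of the 33 genes stayed above 0 in M475R versus WT (0.26 to 0.48) and M475R versus deletion (0.22 to 0.38), while most single calls depended on the setting. For M475R versus WT, the 5 proteasome genes called higher became 3 with no filter on low counts, 0 with DESeq2 and 0 with a biological CV fixed at 20%, and 1 to 7 with 1 library left out. The 246 higher and 294 lower genes overall became 40 and 126 with DESeq2, 48 and 36 at a CV of 20%, and 74 to 251 and 99 to 267 with 1 library left out. For M475R versus deletion, the single call of PRE3 was lost with no filter and at a CV of 20%. It was also lost without M475R replicate 1, at a log2 fold change of 0.80. DESeq2 called 0 proteasome genes and gave no adjusted p for PRE3. The 119 higher and 180 lower genes overall became 21 and 67 with DESeq2, 12 and 38 at a CV of 20%, and 41 to 127 and 64 to 189 with 1 library left out. For deletion versus WT, 14 higher and 6 lower became 2 and 2 with DESeq2, 1 and 2 at a CV of 20%, and 4 to 11 and 4 to 6 with 1 library left out, and no proteasome gene was called under any of these. The cause of these moves was not tested.

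Replicate numbers are not stated to mark a shared batch, and deviations of same-numbered WT and M475R libraries correlated at -0.027 over genes. With the replicate number as a block, 5 proteasome genes were called higher in M475R versus WT and 0 in M475R versus deletion (PRE3, adjusted p = 0.369). Over all genes the block gave 51 higher and 105 lower in M475R versus deletion and 6 higher in deletion versus WT. Scaling by total counts moved the median log2 fold change of all genes from 0.012 to 0.062 (versus WT) and 0.079 (versus deletion), and gave 156 higher and 145 lower genes in the latter. With no filter, the medians of the 33 genes were 0.33 and 0.22, beside 0.15 and 0.12 over all 6029 genes. Among uncalled proteasome genes the sign of the log2 fold change differed from the reported one in 18, 14 and 26 values over 8, 7 and 15 genes in the 3 comparisons. With 7 to 75 counts per subunit gene outside M475R replicate 1, changes below about the widths of the printed intervals were not detectable gene by gene.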

Other observations

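The PACE motif also lay within 300 bases upstream of 46 genes outside the proteasome list, of which 43 were listed and 25 tested. In M475R versus WT, 8 of these 25 were called higher and 1 lower, with a median log2 fold change of 0.49, beside 8.46% called higher and a median of 0.01 over all tested genes. This set was looked at after the proteasome values had been seen and was given no test, and the filter could admit a gene through the strain in which it was high. Beside UBA1, CDC48, ECM29 and YAP1, the genes called higher were PIM1, the Lon protease gene of the mitochondrial matrix (log2 fold change 0.81 ± 0.18 SE, adjusted p = 0.000169), SGT2, a chaperone adaptor gene for tail-anchored proteins (0.75, adjusted p = 0.00039), CUZ1, whose product binds Cdc48 and the proteasome (1.23, adjusted p = 0.00922), and TVS1 (1.77, adjusted p = 0.0296), named after their values were seen. Of these 4, SGT2 alone kept its call without WT replicate 1 (log2 fold change 0.91, adjusted p = 0.028). PIM1 (0.75, adjusted p = 0.0897) and TVS1 (2.25, adjusted p = 0.38) then missed the threshold at log2 fold changes near or above those reported, and CUZ1 at a smaller one (0.81, adjusted p = 0.552). Without M475R replicate 1 none of the 4 was called, at 0.72 for PIM1 (adjusted p = 0.111), 0.65 for SGT2 (0.15), 1.10 for CUZ1 (0.375) and 2.52 for TVS1 (0.226), and TVS1 was also lost without WT replicate 2 (1.59, adjusted p = 0.19).

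The gene called lower was NOP14, a ribosome biogenesis gene (log2 fold change -0.83, adjusted p = 0.0152, and 0.293 without WT replicate 1, 0.116 without WT replicate 2 and 0.363 without M475R replicate 1, at -0.91, -0.77 and -0.87). Of the 46 genes, 8 held the very site counted for a proteasome gene, and 3 of these were tested, PMT1, NOP14 and GCD1. Among the 22 tested genes with a site of their own, 8 were called higher and 0 lower, with a median log2 fold change of 0.53. In M475R versus deletion, 1 of the 25 was called higher, PIM1 (0.93, adjusted p = 0.000468, and 0.107 without M475R replicate 1, at 0.83), beside 4.09% of all tested genes, with a median of 0.19 (0.01 over all tested genes). In deletion versus WT edgeR called 0, beside 0.688% of all tested genes in either direction, with a median of 0.22 (-0.002 over all tested genes).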
